A study of Triticum aestivum with 4 samples.

Results

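The water channels described here are 6 aquaporin genes of bread wheat. Plasma membrane intrinsic proteins make up 4 of them, namely PIP1;4 (AT4G00430), PIP1;5 (AT4G23400), PIP2A (AT3G53420) and PIP2;5 (AT3G54820), and the other two, TIP1;3 (AT4G01470) and GAMMA-TIP (AT2G36830), are tonoplast intrinsic proteins. Members were the assembled transcripts (isotigs) whose best protein match, at an E-value of 0.001 or lower, was an Arabidopsis thaliana protein with 1 of these symbols, so a symbol or locus names the Arabidopsis match and not a wheat locus. In roots this took 38 of 32085 isotigs, in 24 of 24900 isogroups (sets of isotigs that share contigs, close to a gene), and gave 6 of 9199 genes. In leaves it took 17 of 19899 isotigs in 13 of 16585 isogroups and gave 5 of 7012 genes, since no leaf isotig matched PIP2A. Phosphatidylinositol phosphate kinases, whose symbols also begin with PIP, were left out with their 10 root and 2 leaf isotigs.

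The study sequenced root and leaf cDNA of MGS1 Aliança, a Brazilian wheat cultivar, on the Roche 454 platform, with 1 library for each of 4 groups. All plants grew in a glasshouse with 3 seeds per pot and were taken at the tillering stage at an age of 5 weeks, and the plants of 1 pot were pooled. Drought plants had water to 75% of field capacity in their first 2 weeks and none in the 3 weeks that followed. Control plants were held at 100% of field capacity for 5 weeks. No group had a second library, so each test below compares a pair of libraries and not the conditions, and every interval is a 95% interval that covers counting error only. In a bulk library, fewer cells of a type and less RNA per cell cannot be told apart.

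Aquaporins are tetrameric membrane channels that let water, and in some cases small neutral solutes, pass along a gradient. PIPs sit in the plasma membrane and TIPs in the membrane of the vacuole, and in roots both kinds lie on the path that water takes from cell to cell. PIP1 proteins of maize reach the plasma membrane in complexes with PIP2 proteins, and PIP2 proteins are the stronger water channels when expressed in frog oocytes. The tonoplast proteins set the water permeability of the vacuole, and GAMMA-TIP is the classic vacuolar water channel of elongating Arabidopsis cells.

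The root libraries held 300665 reads for drought and 305731 for control plants, and the leaf libraries 299134 for drought and 319997 for control plants. Counted as 1 isotig per isogroup and Arabidopsis match, and summed over isogroups with the same match, the gene reads were 95923 in drought roots, 108532 in control roots, 62632 in drought leaves and 83357 in control leaves. A single isogroup took 30.3% of the drought and 27.2% of the control isogroup reads in roots, and 46.0% of the drought and 42.7% of the control isogroup reads in leaves. The median log2 ratio of drought to control over genes with at least 10 reads was 0.02 in roots and 0.49 in leaves, and in leaves it moved to −0.065 with TMM library sizes. At a p under 0.001 in the MARS model, which takes the reads of a library as a random sample, 334 root genes were up-regulated and 475 were down-regulated. In leaves 355 genes were up-regulated and 181 down-regulated, against 177 and 317 with TMM library sizes. Of a list of 5 drought markers, 4 were measured in each tissue. Their sum was 404 drought and 8 control reads in roots, and 514 drought and 4 control reads in leaves. Of these markers, 3 in roots and all 4 in leaves were up-regulated, beside 3.63% of all root and 5.06% of all leaf genes.

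In drought roots 5 of the 6 aquaporin genes were down-regulated and 0 up-regulated, where 5.16% of all 9199 root genes, and 9.93% of those with at least 10 reads, were down-regulated. The 6 genes together held 188 reads in drought roots and 1685 reads in control roots. That was 0.196% (exact binomial interval 0.169 to 0.226) of the drought gene reads and 1.55% (1.48 to 1.63) of the control gene reads, or 7.92-fold lower in drought roots (6.81 to 9.26). The median log2 ratio of the 6 genes was −2.94, against 0.02 for all root genes with at least 10 reads. Among the 9199 root genes ordered by the MARS z, PIP2A, AT4G23400, AT4G01470 and AT4G00430 stood at places 2, 3, 4 and 5 from the low end and GAMMA-TIP at place 10.

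**Figure D1:**
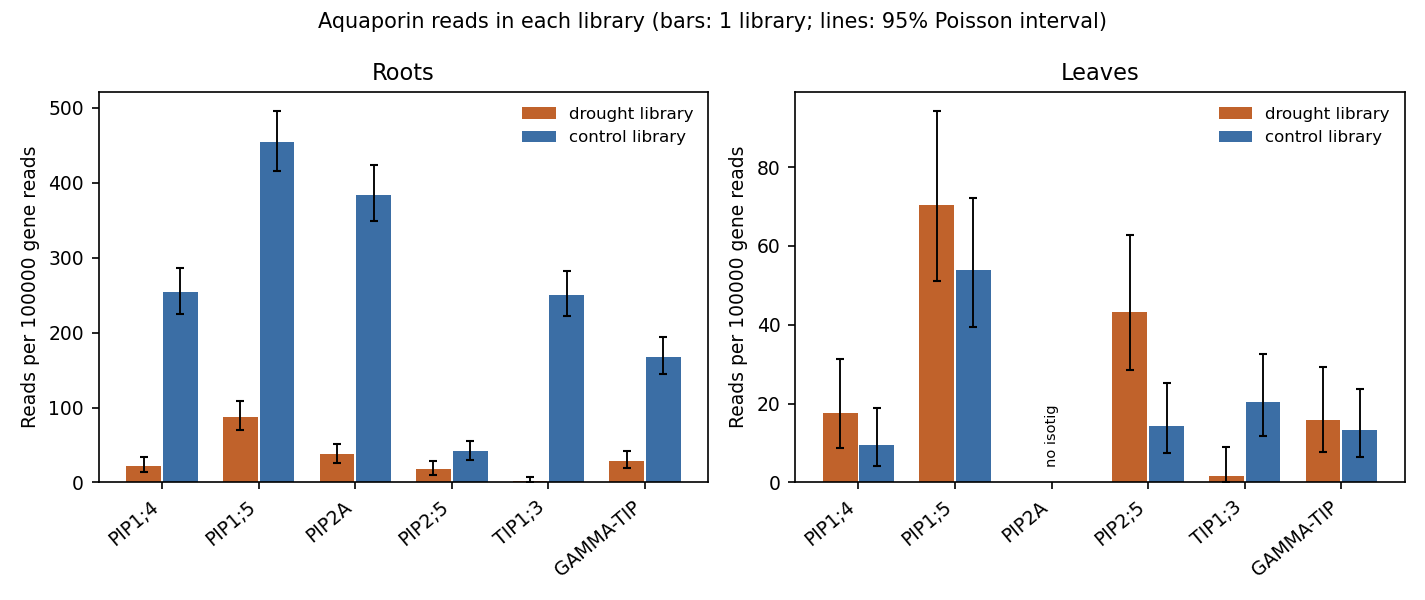
Reads per 100000 gene reads (vertical axis) of the 6 aquaporin genes in the drought library (orange, left bar of each pair) and the control library (blue) of roots (left panel) and leaves (right panel, with its own scale). Each bar is 1 library and each line its 95% Poisson interval. In roots the drought bars lie below the control bars for all 6 genes, while in leaves 1 gene, the tonoplast channel at 1 drought read, is lower in the drought library.

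The PIP1 genes included the most read aquaporin of both root libraries. PIP1;5 had 84 reads in drought roots and 493 reads in control roots. It was 5.19-fold lower in drought roots (exact interval 4.11 to 6.62), with a log2 ratio of −2.37 and a MARS p = 3.71e-62. Its sister gene PIP1;4 had 21 reads in drought roots and 276 reads in control roots. Here drought roots were 11.6-fold lower (exact interval 7.45 to 19.1), with a log2 ratio of −3.54 and a MARS p = 7.5e-52. The intervals of the PIP1 pair did not overlap, so the fall of AT4G00430 was the larger of them beyond counting error.

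The PIP2 genes differed more from each other. PIP2A, a main root water channel in Arabidopsis, had 36 reads in drought roots and 417 reads in control roots. It was 10.2-fold lower in drought roots (exact interval 7.28 to 14.8), with a log2 ratio of −3.36 and a MARS p = 2.75e-74. PIP2;5 had 17 reads in drought roots and 45 reads in control roots. Its ratio, 2.34-fold lower in drought roots (exact interval 1.31 to 4.36), was the smallest of the 6 and missed the threshold (log2 ratio −1.23, MARS p = 0.00156). It passed at a log2 ratio of −1.38 with library totals of all reads and at −1.40 with median-of-ratios size factors. Its interval did not overlap that of PIP2A. The 4 PIP genes summed to 158 reads in drought roots and 1231 reads in control roots, 6.89-fold lower in drought roots (5.83 to 8.18).

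Of all 6 genes TIP1;3, a tonoplast channel that passes water and urea in Arabidopsis, had the most extreme ratio. It was at 2 reads in drought roots against 272 reads in control roots. With so few drought reads the ratio, 120-fold lower in drought roots, has a wide exact interval (33.0 to 998), and the log2 ratio was −6.91 with a MARS p = 3.02e-60. GAMMA-TIP had 28 reads in drought roots and 182 reads in control roots. It was 5.74-fold lower in drought roots (exact interval 3.84 to 8.89), with a log2 ratio of −2.52 and a MARS p = 1.34e-25. The lower bound for AT4G01470 lies above the upper bound for GAMMA-TIP and for every PIP gene. Together the TIP genes had 30 reads in drought roots and 454 reads in control roots, 13.4-fold lower in drought roots (9.24 to 20.1).

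Root and leaf marker genes were counted in the same libraries. Of 10 root markers 6 were measured in roots and 4 of these were down-regulated, beside 5.16% of all root genes. The summed level of the 6 was 56.3 reads per 100000 gene reads in drought roots and 190 reads per 100000 in control roots. The summed root markers were 3.37-fold lower in drought roots (2.49 to 4.64), and the single markers differed widely. The down-regulated ones were the nitrate transporter NRT2:1 with 0 drought and 14 control reads, WR3 with 1 drought read and 20 control reads (17.7-fold lower, 2.83 to 733), the peroxidase RCI3 with 9 drought and 69 control reads (6.78-fold lower, 3.37 to 15.4) and the phosphate transporter PHT1;4 with 28 drought and 65 control reads (2.05-fold lower, 1.30 to 3.32). The intervals of WR3 and RCI3 overlap that of the 6 aquaporins together, while RHD2 had 14 drought and 36 control reads and SHR had 2 drought and 2 control reads. The other 4 root markers, among them CASP1, SCR and COBL9, had no root isotig. Of 10 leaf markers only CA2, a carbonic anhydrase, had a root isotig, with 1 drought read and 25 control reads. The part of these markers in the aquaporin result was not tested.

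Variation between libraries, which a single library a group cannot measure, was set to assumed values in an edgeR exact test. With a coefficient of variation (CV) of 0.2 the 5 down-regulated aquaporins passed p under 0.001, where 2.64% of all root genes were called down. With a CV of 0.4, where 0.685% of all root genes were called down, PIP2A (edgeR exact p = 3.41e-04), AT4G00430 (p = 2.24e-04) and AT4G01470 (p = 2.93e-08) were still called. The calls of AT4G23400 (edgeR exact p = 0.00755) and GAMMA-TIP (p = 0.00671) were lost.

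**Figure D2:**
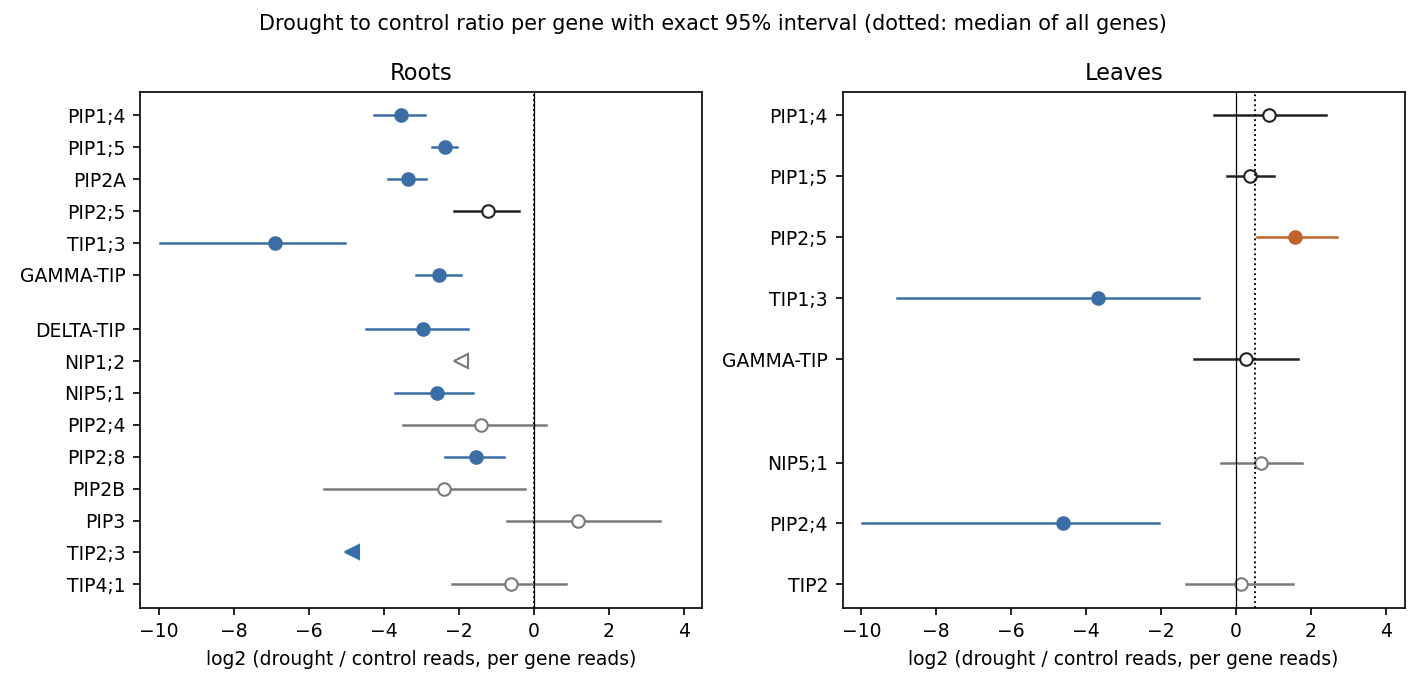
Log2 ratio of drought to control (horizontal axis) for the 6 aquaporin genes (upper block) and the other aquaporin genes with at least 10 reads (lower block), in roots and leaves, with exact 95% intervals of counting error. Filled blue points are down-regulated and filled orange points up-regulated at a MARS p under 0.001, open points are not called, triangles are bounds for genes at 0 drought reads, and the dotted line is the median of all genes. In roots every filled point lies left of the median, at log2 ratios between −6.91 and −1.55.

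Each Arabidopsis match stood for several wheat isogroups. In a hexaploid these may be copies of 1 gene on the 3 subgenomes or separate genes, and the files do not say which. Of the 24 root isogroups, 19 had at least 10 reads, and all 19 were lower in drought roots. The reads given for an isogroup are those of its isotig with the most reads. Their ratios take the summed isotig reads as library totals, 393555 in drought and 359899 in control roots. Gene ratios take the gene reads as totals. In roots the same counts therefore give a larger fall for an isogroup than for a gene. On the isotig count 18 of the 19 were down-regulated and 0 up-regulated. Of all root isotigs, with no minimum of reads, 5.13% were down-regulated and 3.39% up-regulated. The same 18 were down-regulated with the reads counted per isogroup. Of all root isogroups, again with no minimum of reads, 2.82% were down-regulated and 1.99% up-regulated. The share among those with at least 10 reads was not computed. The log2 ratios of the 19 isogroups on the isotig count ran between −7.85 and −1.54 with a median of −3.39. The isogroup that missed the threshold was isogroup02833 of PIP2A, with 3 drought and 16 control reads. The 5 isogroups with fewer reads held 2 drought and 15 control reads in all, and 4 of these 5 were lower in drought roots.

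PIP1;4 rested on isogroup00367 with 6 drought and 130 control reads, isogroup01068 with 11 drought and 85 control reads, and isogroup08234 with 4 drought and 59 control reads. These 3 were 23.7-fold (10.6 to 65.7), 8.45-fold (4.49 to 17.6) and 16.1-fold (5.98 to 61.1) lower in drought roots, with intervals that overlap. For PIP1;5 the largest isogroups were isogroup05726 with 32 drought and 153 control reads and isogroup07243 with 31 drought and 136 control reads. Isogroup02630 had 7 drought and 85 control reads, isogroup07116 had 9 drought and 77 control reads, and isogroup02673 had 5 drought and 31 control reads. The fall ran between 4.80-fold (3.23 to 7.33) in isogroup07243 and 13.3-fold (6.17 to 34.0) in isogroup02630, and these intervals overlap too. The gene thus fell in each of its 5 well-read isogroups and not through a single copy.

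For PIP2A the largest isogroup, isogroup01428, had 17 drought and 163 control reads (10.5-fold lower, 6.35 to 18.4). Isogroup00380 had 3 drought and 83 control reads, isogroup07485 had 5 drought and 66 control reads, and isogroup08886 had 6 drought and 50 control reads. Isogroup09234 had 2 drought and 39 control reads. The largest of these falls was 30.3-fold, in isogroup00380, and the intervals of all 6 isogroups of PIP2A overlap. PIP2;5 had 15 drought and 44 control reads in isogroup00596, which was down-regulated on its own (3.21-fold lower with isotig totals, 1.75 to 6.21). This ratio and the gene ratio rest on different library totals. A second isogroup, aligned to 28.7% of the Arabidopsis protein, had 2 drought reads and 1 control read.

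TIP1;3 was at 1 drought read in each of its isogroups, against 211 control reads in isogroup02835 and 61 control reads in isogroup09223. The ratios were 231 (41.0 to 9156) and 66.7 (11.5 to 2677), so both were near 0 in drought roots. GAMMA-TIP had 13 drought and 141 control reads in the most read isotig of isogroup01126 (11.9-fold lower, 6.72 to 22.8) and 15 drought and 40 control reads in isogroup08477 (2.92-fold lower, 1.58 to 5.68). The intervals of these isotigs did not overlap. Over all reads of isogroup01126, 36 in drought and 234 in control roots, the ratio was 6.40-fold lower (4.49 to 9.37), which overlaps the 2.63-fold (1.42 to 5.12) of isogroup08477 on the same scaling. The isotig of isogroup01126 aligned to 57.4% of the Arabidopsis protein and that of isogroup08477 to 100% of it. Over the 19 isogroups the identity to the Arabidopsis protein was 74% to 88% and the isotig length 1058 to 2350 bases.

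**Figure D3:**
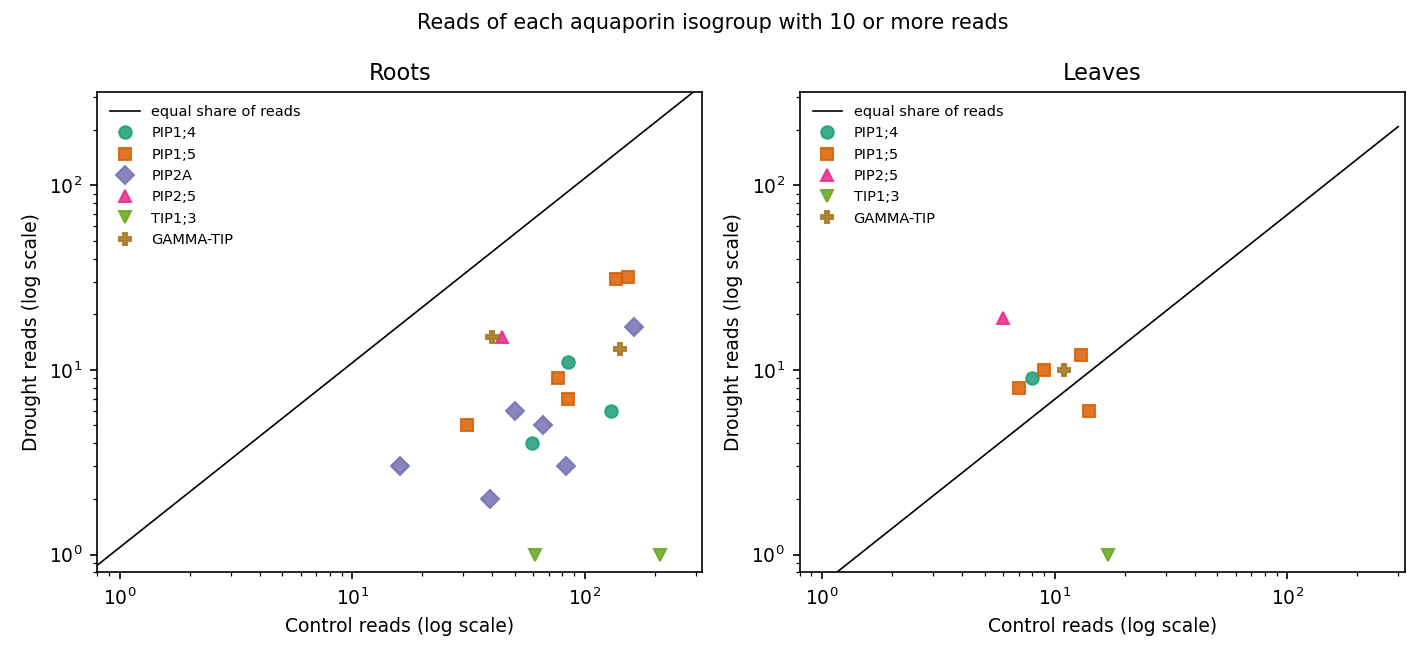
Control reads (horizontal axis, log scale) and drought reads (vertical axis, log scale) of each isogroup with at least 10 reads, from the isotig with the most reads, marked by gene, in roots and leaves. The line marks an equal share of the summed isotig reads of each library. All 19 root isogroups lie below the line and 2 of them, both of 1 tonoplast channel, lie at 1 drought read, while in leaves 6 of the 8 points lie above the line and the point at 1 drought read lies far below it.

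Set per length, the order of the 6 genes differed between the root libraries. A level here is the reads per kb of isotig per 100000 gene reads, summed over isogroups, and its interval is the Poisson interval of the reads. In drought roots AT4G23400 was at 64.0 (51.0 to 79.2), PIP2A at 28.6 (20.04 to 39.6), GAMMA-TIP at 25.2 (16.7 to 36.4), AT4G00430 at 14.9 (9.20 to 22.7), AT3G54820 at 13.8 (8.07 to 22.2) and AT4G01470 at 1.94 (0.235 to 7.02). In control roots AT4G23400 was at 342 (312 to 373), PIP2A at 292 (264 to 321), AT4G01470 at 232 (205 to 261), AT4G00430 at 160 (142 to 180), GAMMA-TIP at 150 (129 to 173) and AT3G54820 at 31.8 (23.2 to 42.5). The tonoplast channel AT4G01470 thus stood at place 6 of 6 in drought roots and at place 3 in control roots. In drought roots the intervals of neighbours overlapped from PIP2A down to AT3G54820. In control roots they overlapped between AT4G23400 and PIP2A and between AT4G00430 and GAMMA-TIP.

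By the same level most of these genes ranked high in control roots among the 9199 genes with an Arabidopsis match. A gene here sums all its isogroups, and isogroups without such a match have no rank. AT4G23400 ranked 129 of 9199 genes in drought roots and 5 in control roots. PIP2A ranked 364 in drought roots and 8 in control roots, and AT4G01470 ranked 6828 in drought roots and 11 in control roots. The ranks were 1090 in drought and 24 in control roots for AT4G00430, 449 in drought and 26 in control roots for GAMMA-TIP, and 1199 in drought and 331 in control roots for AT3G54820. So 5 of the 6 were within the first 26 places in control roots, and the highest place of any in drought roots was 129.

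A list of 29 other aquaporin genes of the Arabidopsis family had 13 members measured in roots, of which 4 were down-regulated and 0 up-regulated, beside the 5.16% of all root genes that were down-regulated and the 3.63% that were up-regulated. Their median log2 ratio was −1.55, and −1.41 with genes at 0 reads placed at their bound, beside 0.085 over all 9199 root genes. Their sum was 70 reads in drought roots and 349 reads in control roots. TIP2;3, a tonoplast channel that passes ammonia as well as water, had 0 reads in drought roots against 98 in control roots. Set against 3 drought reads it was 28.9-fold lower, and the lower bound of the exact interval was 23.0-fold. DELTA-TIP, another tonoplast channel, had 6 drought and 53 control reads (7.81-fold lower, 3.36 to 22.2).

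NIP5;1, named for a plasma membrane channel that takes up boric acid in Arabidopsis roots, had 10 drought and 68 control reads (6.01-fold lower, 3.08 to 13.1). Most of these, 7 drought and 57 control reads, lay in isogroup01484. Its identity to NIP5;1 was only 46%, so the symbol names a distant match. PIP2;8 had 19 drought and 63 control reads (2.93-fold lower, 1.73 to 5.18). These 4 genes were the ones down-regulated in MARS, and with an assumed CV of 0.4 in the edgeR exact test 1 of them, the ammonia channel at 0 drought reads, was still called.

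The other root genes with at least 10 reads were not called. NIP1;2 had 0 drought and 13 control reads and was just short of the threshold in MARS (p = 0.00103), while it passed in Fisher's exact test (p = 3.19e-04). The count of other aquaporins called down in roots was 5 under 7 of the 14 alternatives and 3 with an assumed CV of 0.2. PIP2;4 had 4 drought and 12 control reads, and PIP2B had 2 drought and 12 control reads. PIP3 had 8 drought and 4 control reads and TIP4;1 had 7 drought and 12 control reads. The TIP4;1 reads joined isogroup06892, with 1 drought and 10 control reads, and isogroup09958, with 6 drought and 2 control reads. These aligned to 98.8% and 41.0% of the Arabidopsis protein in that order. Root drought reads of PIP3 were thus above control reads, but its ratio of 2.26 has an interval that includes 1 (0.606 to 10.3). TIP3;1, a tonoplast channel of seeds in Arabidopsis, had fewer than 10 reads, all 9 of them in drought roots.

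In leaves 1 of the 5 measured genes was down-regulated and 1 was up-regulated. Of all 7012 leaf genes 2.58% were down-regulated and 5.06% up-regulated, and of those with at least 10 reads 6.09% were down-regulated and 11.9% up-regulated. Summed over the 5 genes there were 93 reads in drought leaves and 93 reads in control leaves, which is 0.148% (exact binomial interval 0.120 to 0.182) of the drought gene reads and 0.112% (0.0901 to 0.137) of the control gene reads. The fold was 1.33 (0.988 to 1.79), and its interval includes 1. This sum holds reads of 1 isogroup under both PIP1 genes, and with each isogroup counted once there were 89 drought and 86 control reads. The median log2 ratio was 0.38 over the 5 genes, beside 0.49 over all leaf genes with at least 10 reads.

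PIP1;5 was again the most read of the set, with 44 reads in drought leaves and 45 reads in control leaves. Its fold was 1.30 (exact interval 0.839 to 2.02, log2 ratio 0.38, MARS p = 0.212), so the 5.19-fold fall of roots lies outside the leaf interval. PIP1;4 had 11 drought and 8 control reads (fold 1.83, exact interval 0.670 to 5.24, MARS p = 0.188). GAMMA-TIP had 10 drought and 11 control reads (fold 1.21, exact interval 0.461 to 3.14, MARS p = 0.661). All 3 intervals include 1, and none reaches as low as the root ratio of its gene. Relative to the median of all genes the log2 ratios were −0.11 for AT4G23400, 0.38 for AT4G00430 and −0.22 for GAMMA-TIP.

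PIP2;5 had 27 reads in drought leaves and 12 reads in control leaves, a fold of 2.99 (exact interval 1.47 to 6.49, log2 ratio 1.58, MARS p = 9.41e-04). It was up-regulated at a p close to the threshold, and the log2 ratio of 1.27 with library totals of all reads and of 1.02 with TMM library sizes did not pass. With an assumed CV of 0.2, where 2.47% of leaf genes were called up by the edgeR exact test, it was not called. Its reads came from 3 isogroups that did not share a direction, with 19 drought and 6 control reads in isogroup01210, 8 drought reads and 1 control read in isogroup04928, and 0 drought and 5 control reads in isogroup05659. The identity to the Arabidopsis protein was 82%, 67% and 63% in that order, so the isogroup nearest to the Arabidopsis protein carried most of the reads.

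TIP1;3 had 1 read in drought leaves and 17 reads in control leaves, all in 1 isogroup. The ratio was 12.8-fold lower in drought leaves (exact interval 2.00 to 534, log2 ratio −3.68, MARS p = 2.37e-04). The call was lost with Fisher's exact test (p = 0.00114) and in the edgeR exact test with an assumed CV of 0.2 or 0.4, where 1.03% and 0.0570% of leaf genes were called down. It passed under each scaling of the libraries that was tried. This was the gene of the set with the fewest drought reads in leaves as in roots.

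The leaf isogroups of AT4G23400 with at least 10 reads were 4, with 6 drought and 14 control reads, 12 drought and 13 control reads, 8 drought and 7 control reads, and 10 drought and 9 control reads. None of them passed the threshold. Its isogroup00508 also held the isotig of AT4G00430 with 9 drought and 8 control reads, so part of the leaf reads of these PIP1 genes cannot be told apart. Likewise the GAMMA-TIP reads of leaves lay in isogroup00255, which TIP2 shared, at an identity of 66% to GAMMA-TIP. At the isotig level the isogroup of AT4G01470 was down-regulated, where 2.93% of leaf isotigs were, and isogroup01210 of AT3G54820 was up-regulated, where 4.85% were. With reads per isogroup, where 2.18% of leaf isogroups were down-regulated and 2.07% up-regulated, only the first of these calls remained.

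Leaf markers moved as well in these libraries. Of 10 leaf markers 9 were measured in leaves and 8 were down-regulated, beside 2.58% of all leaf genes. The summed level of the 9 was 3061 reads per 100000 gene reads in drought leaves and 14788 reads per 100000 in control leaves. RBCS1A, the small subunit of Rubisco, had 901 drought and 6764 control reads, and no measured leaf marker was at 0. Of the 10 root markers 3 had leaf isotigs, with 6 drought and 19 control reads in sum. The phosphate transporter AT2G38940 carried most of these (3 drought and 17 control reads), WR3 had 3 drought and 0 control reads, SCR had 0 drought and 2 control reads, and none of the 3 was called. The part of these markers in the leaf values of the aquaporins was not tested.

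Levels per kb in leaves separated fewer of the genes. In drought leaves AT4G23400 was at 64.2 (46.7 to 86.2), AT4G00430 at 38.8 (19.4 to 69.5), AT3G54820 at 36.5 (24.1 to 53.2), GAMMA-TIP at 13.9 (6.66 to 25.5) and AT4G01470 at 1.38 (0.0349 to 7.68), and each pair of neighbours overlapped. The level of AT4G00430 includes 2 reads on an isotig of 127 bases, which raises it. In control leaves AT4G23400 was at 44.9 (32.7 to 60.1), above AT4G01470 at 17.6 (10.3 to 28.2), AT3G54820 at 13.2 (6.82 to 23.1), GAMMA-TIP at 11.5 (5.73 to 20.5) and AT4G00430 at 9.14 (3.95 to 18.0). Here only AT4G23400 stood apart from its neighbour.

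Among the other aquaporins of leaves, 8 of 29 were measured, 1 was down-regulated and 0 were up-regulated, a single call beside the 2.58% of all leaf genes that were down-regulated. They had 35 drought and 71 control reads in sum. Their median log2 ratio of −0.59 is the value of genes with 0 drought and 2 control reads, beside 0.41 over all 7012 leaf genes. The plasma membrane channel PIP2;4 had 1 drought read and 33 control reads, 24.8-fold lower in drought leaves (4.15 to 1009). Of these, 1 drought read and 28 control reads lay in isogroup01302, at an identity of 65%. The boric acid channel AT4G10380 had 18 drought and 15 control reads and TIP2 had 9 drought and 11 control reads, and neither was called.

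**Figure D4:**
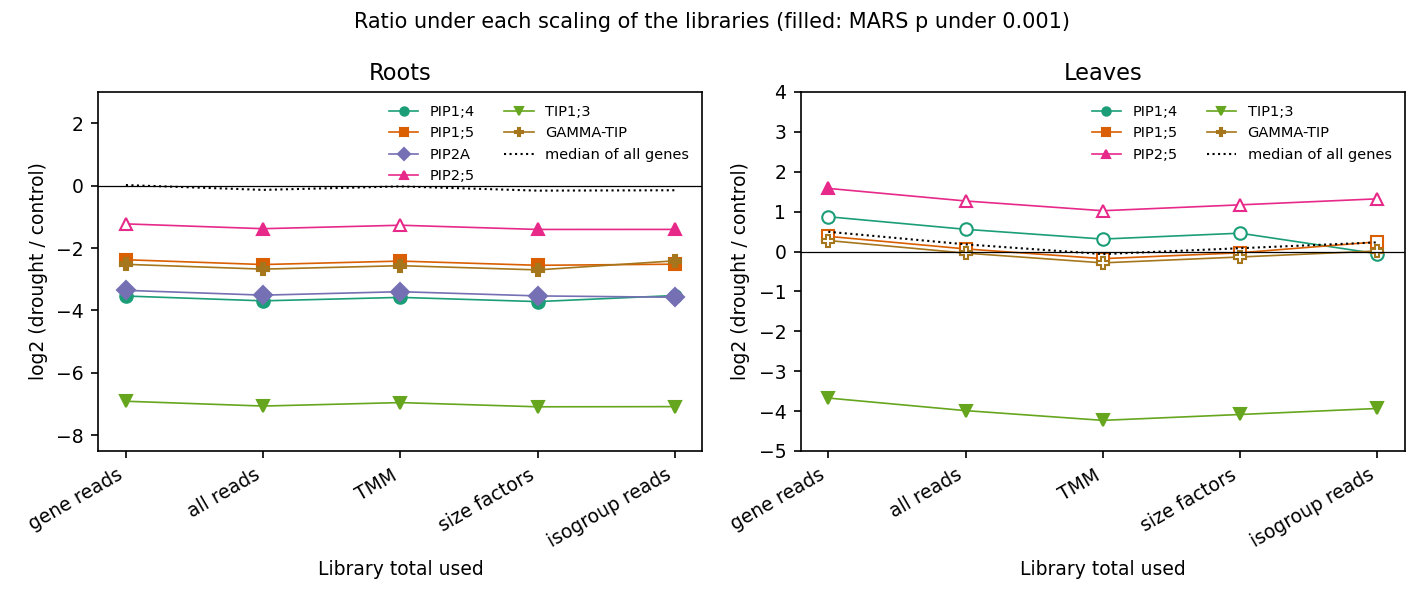
Log2 ratio of drought to control (vertical axis) of each aquaporin gene under 5 choices of library total (horizontal axis), in roots and leaves. Filled symbols have a MARS p under 0.001 and the dotted line is the median of all genes under the same choice. In roots all 6 genes stay below the median under each choice, while in leaves both PIP1 genes and GAMMA-TIP lie close to the median and change sign between choices.

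The drought ratios of roots and leaves were compared through the difference of their log2 ratios. The tissues were assembled apart, so levels were not tested against each other, and a symbol may stand for different wheat genes in each. For GAMMA-TIP the identity of isogroups with at least 10 reads was 74% to 76% in roots and 66% in leaves. The leaf reads of AT3G54820 joined isogroups at 82%, 67% and 63% identity. The variance of the difference was taken from Poisson counts in the 4 libraries, and its p was adjusted by the Benjamini-Hochberg method over the 5500 genes measured in both tissues. Of the 5 aquaporins measured in both, 4 had a more negative ratio in roots at an adjusted p under 0.05, where 3.67% of the 5500 genes did. The difference (roots minus leaves, log2) was −4.36 for AT4G00430 (standard error 0.728, adjusted p = 6.77e-07) and −2.75 for AT4G23400 (standard error 0.348, adjusted p = 2.8e-12). For the PIP2 gene AT3G54820 it was −2.75 (standard error 0.638, adjusted p = 0.00133) and for GAMMA-TIP −2.78 (standard error 0.681, adjusted p = 0.00285). The main scaling leaves the median gene at 0.02 in roots and 0.49 in leaves, which adds to each negative difference. With TMM library sizes the difference was −2.23 for AT3G54820 (adjusted p = 0.0276) and −2.27 for GAMMA-TIP (adjusted p = 0.0435).

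The tonoplast channel AT4G01470, lower in both drought libraries, had a difference of −3.46 with a standard error of 1.53 (adjusted p = 0.211), so its fall was not shown to differ between roots and leaves. Of the other aquaporins, NIP5;1 (AT4G10380) had a difference of −3.20 (Poisson z, adjusted p = 4.27e-04). Most of its reads lay in isogroup01484 in roots, at 46% identity, and in isogroup02975 in leaves, at 43%. These distant matches may be different wheat genes. The PIP2 gene AT5G60660, down-regulated in leaves, went the opposite way with a difference of 2.77 (adjusted p = 0.298). It missed the threshold that 0.473% of the 5500 genes passed in that direction.

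Proton pumps energise the same membranes, the P-type ATPases the plasma membrane, and the V-type ATPase and the pyrophosphatase AVP1 the tonoplast. Of 41 pump genes and subunits in a list, 20 were measured in roots, of which 3 were up-regulated and 1 was down-regulated. Of all root genes 3.63% were up-regulated and 5.16% down-regulated. Of those with at least 10 reads 6.98% were up-regulated and 9.93% down-regulated. The 18 pumps with at least 10 reads had a median log2 ratio of 0.62, against −2.94 for the 6 aquaporins and 0.02 for all root genes with at least 10 reads. Their sum was 925 reads in drought roots and 697 reads in control roots, a fold of 1.502 (1.36 to 1.66).

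In roots AVP1 had 245 drought and 135 control reads (fold 2.05, 1.66 to 2.55). The plasma membrane pump HA2 had 237 drought and 175 control reads (fold 1.53, 1.26 to 1.87), and VHA-C3, a V-type subunit of the membrane ring, had 68 drought and 40 control reads (fold 1.92, 1.28 to 2.92). HA11, also a plasma membrane pump, was down-regulated, with 27 drought and 66 control reads (2.16-fold lower, 1.36 to 3.52). Thus the tonoplast pump AVP1 and the tonoplast channels GAMMA-TIP and AT4G01470 were called in opposite directions by MARS in the same pair of libraries. With an assumed CV of 0.2 in the edgeR exact test, where 1.63% of root genes were called up, AVP1 was no longer called (p = 0.0203), while both channels were.

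In leaves 23 pump genes were measured, of which 4 were up-regulated and 0 down-regulated. Of all leaf genes 5.06%, and of those with at least 10 reads 11.9%, were up-regulated. The 16 pumps with at least 10 reads had a median log2 ratio of 0.77, beside 0.49 for all leaf genes with at least 10 reads. The sum was 654 reads in drought leaves and 572 reads in control leaves (fold 1.52, 1.36 to 1.71). The 3 with the largest z were V-type subunits, VHA-A with 88 drought and 46 control reads, VHA-A3 with 63 drought and 28 control reads, and VAB2 with 102 drought and 67 control reads. The edgeR exact test called 0 pumps in either tissue with an assumed CV of 0.2 as with a CV of 0.4, where 0.50% of root genes and 0.471% of leaf genes were called up at the higher CV.

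**Figure D5:**
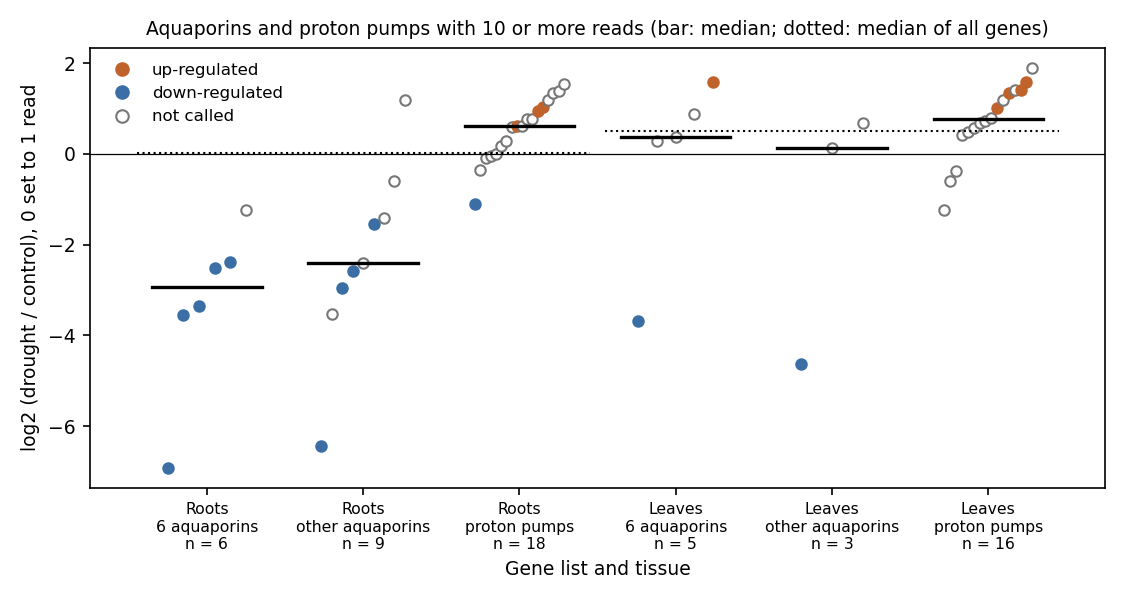
Log2 ratio of drought to control (vertical axis, 0 reads set to 1) of genes with at least 10 reads in 3 lists, the 6 aquaporins (5 of them in leaves), the other aquaporins and the proton pumps, in roots and leaves. Each point is 1 gene, filled where called at a MARS p under 0.001, each bar is the median of its list and the dotted lines are the medians of all genes. In roots the bar of the 6 aquaporins is at −2.94 and both aquaporin bars lie below the dotted line while the pump bar lies above it.

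The genes whose levels over the 4 libraries were most like those of the pooled PIP genes were sought by the Euclidean distance between centred log2 levels. Candidates were 1458 genes with at least 50 reads that were measured in both tissues. This distance sets root levels beside leaf levels, although the tissues were assembled apart. The PIP pool holds reads of PIP2A in roots but none in leaves. The nearest were AT2G46750 (distance 0.407), the tonoplast channel GAMMA-TIP (0.419), the root-type ferredoxin reductase RFNR2 (0.654), AT3G21360 (0.691) and the actin ACT11 (0.765). Of the PIP genes themselves, AT4G23400 ranked 3 and AT4G00430 ranked 5 in distance to their own pool, and AT3G54820 ranked 336. For the pooled TIP genes the nearest were DIN10 (0.497), the cysteine protease SAG12 (0.619), AT4G24130 (0.656), AT5G38710 (0.659) and CRK29 (0.709). The TIP genes themselves lay farther from their own pool, GAMMA-TIP at rank 13 (1.22) and TIP1;3 at rank 287 (2.97). SAG12 had 11 reads in drought roots against 152 in control roots, and 5 in drought leaves against 7 in control leaves.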

How the data were processed

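RNA of roots and leaves was sequenced as cDNA on the 454 platform, 1 library per group. The authors assembled drought and control reads jointly within each tissue with the GS De Novo Assembler and deposited counts of reads per isotig and per isogroup. Reads of a contig shared by several isotigs are repeated among the counts of these isotigs, as the column sums show. The deposited RPKM values and the authors' tables of fold changes and p-values were not used. The deposited annotation gives for each isotig the best protein match with its E-value and percent identity.

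Here isogroups were summed by the Arabidopsis locus matched at an E-value of 0.001 or lower, each counted once per locus through its isotig with the most reads for that locus. An isogroup whose isotigs matched several loci was counted under each of them, as were 503 of 15269 matched root isogroups and 246 of 10460 matched leaf isogroups. Libraries were compared within a tissue with the MARS model of DEGseq, as in the study, rewritten in Python and tested on simulated data (two-sided, p under 0.001 unadjusted, 0 reads set to 1, all genes of a tissue fitted together). Folds carry an exact binomial 95% interval conditional on the sum of both counts. Library totals were the gene reads for genes, the summed isotig reads for isotigs and the summed isogroup reads for reads per isogroup. A gene at 0 reads was bounded against 3 reads. Gene reads were 62632 to 108532 per library, and the counts limit the precision.

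Named were the 6 genes with their isogroups of at least 10 reads, the other aquaporins with at least 10 reads, up to 3 called proton pumps per tissue and direction, and the 5 genes most like each pool. TIP3;1 and the single root and leaf markers were named beside them after their values were seen. The members and lists were chosen with earlier results of these data known. Tried besides were adjusted p-values (Benjamini-Hochberg), Fisher's exact test, edgeR's exact test with an assumed CV of 0.2 or 0.4, other library totals (all reads, TMM, DESeq2 size factors), 0 set to 0.5, minima of 10 reads or 2-fold, all isotigs summed, the top isotig alone, an E-value of 1e-50, and, chosen after seeing the data, reads per isogroup. With 1 library a group, edgeR's quasi-likelihood test could not be fitted. Tools were Python 3.11.15, numpy 2.4.6, scipy 1.17.1, pandas 2.3.3, matplotlib 3.10.9, R 4.3.3, edgeR 4.0.16 and DESeq2 1.42.0.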

Additional observations from a re-analysis of the deposited data

Results flagged for a closer look

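Of the 5 aquaporin genes measured in both tissues, 4 had a drought effect that differed between roots and leaves at an adjusted p under 0.05. The effect was more negative in roots for these 4, as for 3.67% of the 5500 genes tested. The test was of the difference itself (Poisson z on the 4 libraries, Benjamini-Hochberg adjusted over all genes measured in both tissues). The differences, roots minus leaves on the log2 scale, were −4.36 for PIP1;4, −2.75 for PIP1;5, −2.75 for PIP2;5 and −2.78 for GAMMA-TIP. Of these, PIP1;4, PIP1;5 and GAMMA-TIP were down-regulated in roots and not called in leaves. PIP2;5 was up-regulated in leaves and missed the threshold in roots. Each group is 1 library, so the test covers counting error only. The tissues were assembled apart, so a symbol may stand for different wheat genes in roots and leaves.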

How the results depend on the processing

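Of the 84 alternative values for the 6 genes in roots, 76 kept their direction and their side of the threshold. PIP2;5 in roots passed it with library totals of all reads (log2 ratio −1.38), median-of-ratios size factors (−1.40), all isotigs summed (−1.44), the top isotig alone (−1.44), an E-value of 1e-50 (−1.34) and reads per isogroup (−1.40). With an assumed CV of 0.4, PIP1;5 (−2.37) and GAMMA-TIP (−2.52) no longer passed in roots, 3 of the 6 genes and 1 of the other aquaporins were called down in roots, and 0 of the other aquaporins in leaves. In leaves PIP2;5 (1.58) and TIP1;3 (−3.68) no longer passed with Fisher's exact test, Benjamini-Hochberg adjustment (adjusted p = 0.0124 and 0.00402) or an assumed CV of 0.2 or 0.4, so that 0 of the 6 genes were called down and 0 up. PIP2;5 in leaves also missed the threshold, leaving 0 called up, with library totals of all reads (1.27), TMM (1.02), size factors (1.17), the top isotig alone (1.99) and reads per isogroup (1.32). The uncalled leaf ratios changed sign for PIP1;4 with reads per isogroup (−0.056), for PIP1;5 with TMM (−0.18) and size factors (−0.032), and for GAMMA-TIP with library totals of all reads (−0.040), TMM (−0.28) and size factors (−0.14). The tissue difference of TIP1;3 passed with all isotigs summed (−4.09), which counts shared reads repeatedly. With TMM the tissue differences of PIP2;5 (−2.23) and GAMMA-TIP (−2.27) were nearer the threshold (Poisson z, adjusted p = 0.0276 and 0.0435). An assumed CV adds variance and also replaces MARS with the edgeR exact test. The cause of the lost or gained calls was not tested. No replicate could be left out and no paired analysis was possible because each group has 1 library.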

Other observations

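Outside the Arabidopsis matches, 5 root isotigs had an animal aquaporin as their best match (symbols AQP3, AQP7, AQP9, Aqp3 and aqp-7) at an identity of 43% to 49%, with 2 drought reads and 26 control reads in sum, and leaves had 0 such isotigs. Reads left out of the assembly held few aquaporins, with 1 of 37457 singleton reads in roots and 1 of 28880 in leaves matching 1 of the 6 genes, and 7 in roots and 2 in leaves matching another aquaporin. A further root isotig with the symbol PIP1;5 had an E-value above the limit and 0 drought and 1 control read.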
